A study of Homo sapiens with 6 samples.

Results

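The linker histone genes H1-2, H1-4 and H1-10 and the core histone variant genes H2AX, H2AZ1, H2AZ2, MACROH2A1, H3-3A and H3-3B were examined in THP-1 cells, a human acute myeloid leukemia line with monocytic features, after knockdown (KD) of the transcription factor NFIC. These 9 genes were taken by symbol from the 33981 genes of the count table, and 8 of them were among the 19182 genes tested. The exception was H1-4, which had too few reads. Cells grown with FBS, in IMDM per the labels or RPMI per the study's methods, were infected with a lentivirus carrying either a scrambled shRNA (3 samples) or an shRNA against NFIC (3 samples), sorted for GFP at day 4 and analyzed by bulk RNA sequencing. Both groups were infected and sorted alike, and the design held 1 cell line and, per the study's figures, 1 hairpin against NFIC, so an effect of the hairpin other than that on NFIC cannot be told apart from that of NFIC. The labels and the study's figures call the control a scrambled shRNA, whereas its methods call it a GFP-only vector, and the control numbers in its text are not all those of the labels and the count table. Since neither says that the 3 samples of a group came from separate cultures, p-values measure the spread between these samples, which may be technical.

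Histones package DNA into nucleosomes, and linker histones of the H1 family bind where DNA enters and leaves the nucleosome. Most canonical histone genes are transcribed in S phase into mRNAs that end in a stem-loop bound by SLBP instead of a poly(A) tail. Variant histones are made through the cell cycle, largely from polyadenylated mRNAs, and are placed by their own chaperones. H3.3 marks active genes and enhancers, H2A.Z sits beside transcription start sites, H2A.X is phosphorylated at DNA breaks, and macroH2A is found on silent chromatin and is a known brake on reprogramming.

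NFIC itself was measured at 42.1, 41.4 and 42.2 CPM (a read count relative to the total of its sample, scaled by the TMM factors) in the scrambled samples and at 19.4, 22.3 and 21.4 CPM in the NFIC shRNA samples. Its log2 fold change (NFIC shRNA over scrambled) was -0.99 (SE 0.072, edgeR quasi-likelihood test with Benjamini-Hochberg adjustment, adjusted p = 3.73e-09). Total counts were between 20369543 and 24809720 per sample, and 3 counts corresponded to 0.122 to 0.146 CPM. The groups separated on the first principal component, which held 77.2% of the variance. On the second, with 7.37%, scrambled replicate 2 and NFIC shRNA replicate 3 lay apart from the other 4 samples. All 10 monocyte markers examined passed the filter on low counts (5 rose and 3 fell), while 7 of 8 erythroid and megakaryocyte markers and 3 of 6 lymphoid markers had at most 3 counts in each sample or no entry. The 1 erythroid or megakaryocyte marker tested fell (log2 fold change -1.83), as did 2 of the 3 lymphoid markers tested, and these lists summed to at most 6.63 and 10.3 CPM. The 5 granulocyte markers that were tested all fell, and their list summed to 219 to 229 CPM in the scrambled samples and to 139.6 to 177 CPM with NFIC shRNA. Whether this shift bears on the histone genes was not tested. In bulk samples, fewer cells of a type and less RNA per cell cannot be told apart.

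Of the 8 histone genes tested, H1-2, H2AX, H2AZ1 and H2AZ2 rose with NFIC shRNA, MACROH2A1 and H3-3B fell, and H1-10 and H3-3A did not pass the test. The 4 that rose stand against 29.6% of all genes tested that rose, the 2 that fell against 30.3% that fell, and the 6 called in either direction against 59.9% called among all genes. CPM values of the groups did not overlap for those 6 genes, as for 65.2% of all genes tested. With 8 genes, these counts are not read as a result about histone genes. The median of the log2 fold change was 0.31 over the 8 histone genes and -0.011 over all genes tested, and the median of its size without sign was 0.54 against 0.37. The range was wide. H1-2 and H2AX lay above the 95th percentile of all genes, at 0.87, H2AZ1 and H2AZ2 lay above the 75th percentile, at 0.33, and MACROH2A1 lay between the 5th and 25th percentiles, at -1.26 and -0.44.

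**Figure D1:**
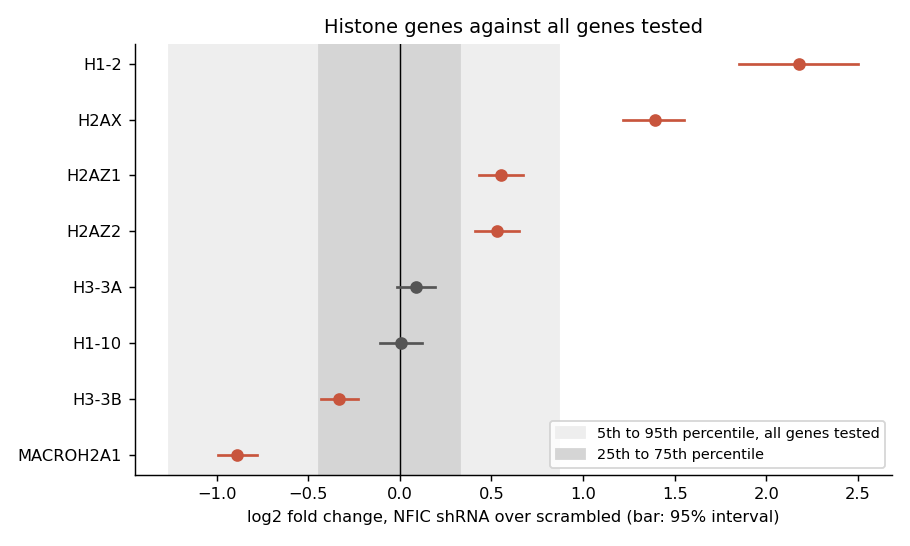
Log2 fold change of NFIC shRNA over scrambled (x axis) for the 8 histone genes tested, with bars for the 95% interval, over shaded bands that hold the middle of all 19182 genes tested. Red points passed an adjusted p of 0.05 and grey points did not: H1-2 (2.18) and H2AX (1.39) lie to the right of both bands, and H3-3A (0.088) and H1-10 (0.0077) lie near 0.

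H1-2 encodes histone H1.2, a linker histone of the replication-dependent type. Its reads were few in the control, at 1.99, 2.36 and 2.29 CPM (43, 58 and 49 counts). With NFIC shRNA the gene was measured at 8.93, 9.52 and 11.7 CPM (184, 221 and 269 counts). Whether the libraries were made by poly(A) selection is not given in the sources used here. The level of this stem-loop mRNA and its capture thus cannot be told apart. Every NFIC shRNA sample was above every scrambled sample, and NFIC shRNA replicate 3, which lay apart on the second component, was the highest. The mean rose from 2.21 ± 0.196 to 10.0 ± 1.44 CPM (SD, n = 3), a ratio of 4.54. The log2 fold change was 2.18 (SE 0.15, 95% interval 1.85 to 2.5, adjusted p = 2.6e-09 by the edgeR test), the largest of the 8 histone genes, and it was 2.11 without the 2 samples that lay apart.

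H1-4 encodes histone H1.4, a close relative made from the same histone gene cluster on chromosome 6. It had 2, 1 and 8 counts in the scrambled samples and 1, 15 and 3 counts with NFIC shRNA, or 0.0406 to 0.374 CPM and 0.0485 to 0.646 CPM. The groups overlapped, and values of both lay on either side of the level of 3 counts. A change of H1-4 was not detectable from these few counts, and the limit on capture given for H1-2 holds here too. With no filter on low counts, edgeR estimated its log2 fold change at 0.76 (adjusted p = 0.456).

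In the GENCODE release 44 annotation of GRCh38, H1-2 lies at chr6:26055740-26056470 on the minus strand and H1-4 at chr6:26156329-26157115 on the plus strand, each as 1 exon whose transcript ends shortly after the coding sequence. Both transcripts end in the stem-loop that marks replication-dependent histone mRNAs. H2AX holds one as well, at chr11:119094893-119094918 on the minus strand, but its transcript goes on to a poly(A) signal. The 3 stem-loops are shown because H1-2 and H1-4 share this 3′ end and differed in measured level, and because H1-2 and H2AX, the genes that rose most, share it too. Capitals mark the arms and the loop, read 5′ to 3′ on the transcript strand. The H1-2 run spans chr6:26055740-26055764 and the H1-4 run chr6:26157090-26157115.
H1-2: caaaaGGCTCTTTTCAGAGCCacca
H1-4: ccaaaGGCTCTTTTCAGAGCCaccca
H2AX: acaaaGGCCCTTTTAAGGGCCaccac

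The stem-loop begins 27 bases after the stop codon in H1-2, 44 in H1-4 and 49 in H2AX, and only H2AX has a long sequence after it, with 1089 bases from the stop codon to the transcript's end. A stem-loop of this form (arms of 6 bases beginning with GG, a loop of 4 bases beginning with TTT) lies within 100 bases of the stop codon in 68 of 19919 protein-coding transcripts (0.341%), nearly all of them histone genes. Of the 26 such genes tested, H1-2 and H2AX included, 20 rose and 1 fell, with a median log2 fold change of 1.29. Over all genes tested, 29.6% rose and 30.3% fell, with a median of -0.011, and the form of the stem-loop was chosen with results of these data known. The rest of the 68 were not tested. The filter on low counts keeps a gene that passes in 1 group alone, so a scarce gene could enter the 26 through the group where it was higher. The count of 20 against 1 is therefore not read as a result about stem-loop genes. CDC40, a splicing factor gene and the only one of the 68 with a symbol outside the histone families, was among those that rose (log2 fold change 0.22).

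The 300 bases around the transcription start are shown for H1-2, H1-4 and H2AX, which carry the stem-loop, to set their promoters side by side. The sequences are those of RefSeq on GRCh38.p14, from 250 bases before to 50 after the start, read 5′ to 3′ on the gene's strand: H1-2 at chr6:26056421-26056720 (minus strand), H1-4 at chr6:26156079-26156378 (plus strand) and H2AX at chr11:119095416-119095715 (minus strand). Capitals mark CCAAT (the CCAAT box), AAACACA (the H1 box of linker histone promoters) and TATAAA (the TATA box), on either strand.
H1-2: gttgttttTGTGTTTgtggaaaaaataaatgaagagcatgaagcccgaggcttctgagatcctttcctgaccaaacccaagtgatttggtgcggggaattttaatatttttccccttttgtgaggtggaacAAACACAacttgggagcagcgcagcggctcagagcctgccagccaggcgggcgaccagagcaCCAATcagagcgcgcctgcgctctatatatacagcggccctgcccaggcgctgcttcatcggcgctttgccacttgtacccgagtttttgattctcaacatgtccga
H1-4: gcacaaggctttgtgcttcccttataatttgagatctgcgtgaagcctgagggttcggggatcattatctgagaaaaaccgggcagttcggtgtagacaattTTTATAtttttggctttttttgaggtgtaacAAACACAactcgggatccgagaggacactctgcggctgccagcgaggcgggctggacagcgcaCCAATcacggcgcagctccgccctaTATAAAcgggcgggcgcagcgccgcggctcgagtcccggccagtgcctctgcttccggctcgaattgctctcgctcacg
H2AX: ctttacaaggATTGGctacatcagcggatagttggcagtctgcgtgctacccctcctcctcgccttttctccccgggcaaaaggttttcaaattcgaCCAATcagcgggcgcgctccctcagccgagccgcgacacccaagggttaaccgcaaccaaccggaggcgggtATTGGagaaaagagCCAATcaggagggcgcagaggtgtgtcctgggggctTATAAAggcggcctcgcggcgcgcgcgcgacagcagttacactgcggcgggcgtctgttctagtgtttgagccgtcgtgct

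H1-2 has 1 CCAAT and 2 copies of AAACACA in this window, and H1-4 has 1 of each with 2 TATAAA matches. H2AX has 4 CCAAT and 1 TATAAA. Among 35116 RefSeq promoter windows of the same length, 34.6% hold CCAAT, 5.64% hold AAACACA and 11.5% hold TATAAA on at least 1 strand. The palindrome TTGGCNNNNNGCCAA, to which NFI proteins bind, was found in 0.0285% of the windows and in none of those of the 9 histone genes. The letters TTGGCA, which are an arm of this palindrome (TTGGC) with an A added, were held by 12.5% of all windows. Among the 9 genes TTGGCA was found in H2AX alone, once. The arm TTGGC without the A was not counted over all windows. On either strand, it also occurs in windows of H1-4, H1-10, H2AZ1, H2AZ2, H3-3A and H3-3B, so H2AX does not stand alone in holding it. H2AZ2 and H3-3B also held 4 CCAAT each and H2AZ1 held 3, and 1 of the 2 windows of MACROH2A1 held 2, so windows with several copies belonged both to genes that rose and to genes that fell. These matches describe letters in a window, not binding.

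H1-10 encodes H1.10 (H1x), a replication-independent linker histone with a polyadenylated mRNA, at chr3:129314771-129316286 on the minus strand. It was measured at 166, 162 and 168 CPM in the scrambled samples and at 159.6, 179 and 160 CPM with NFIC shRNA. The groups overlapped and their means were 165 ± 3.27 and 166 ± 11.1 CPM (SD, n = 3). The log2 fold change of 0.0077 (SE 0.054, adjusted p = 0.912 by edgeR's quasi-likelihood test with Benjamini-Hochberg adjustment) had a 95% interval from -0.11 to 0.12. Its sign turned under upper-quartile scaling (-0.049). The antisense gene H1-10-AS1 shares 345 exon bases with it and stood at 94 and 95.2 CPM in the same groups. The strand setting of the counting was not given in the sources used here, so reads from shared bases cannot be told apart.

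Among further linker histone genes, H1-1, H1-3, H1-5, H1-6 and H1-7 had between 0 and 6 counts in each sample and were not tested. H1-1, H1-3, H1-5 and H1-6 carry a stem-loop of the form given above. The limit on capture given for H1-2 thus holds for them too.

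**Figure D2:**
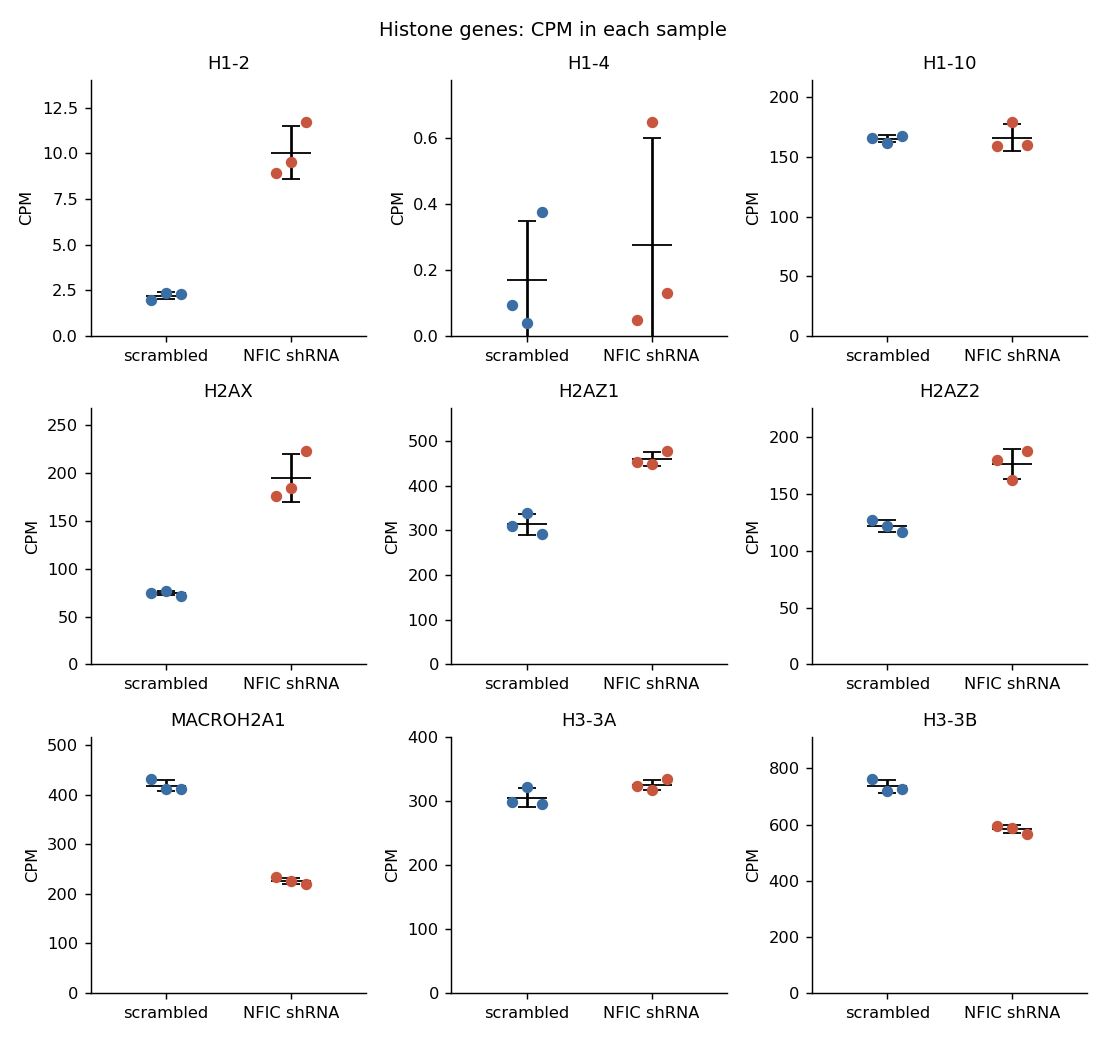
CPM of each of the 9 histone genes in each sample (points), with the mean and SD of the 3 samples of a group (bars); each panel has its own axis from 0. The 2 groups are apart for H1-2, H2AX, H2AZ1, H2AZ2, MACROH2A1 and H3-3B and overlap for H1-4, H1-10 and H3-3A.

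H2AX encodes the H2A variant whose phosphorylated form, gamma-H2AX, marks DNA double-strand breaks, and the gene lies at chr11:119093874-119095465 on the minus strand. It was measured at 74.7, 76.7 and 71.9 CPM in the scrambled samples and at 176, 184 and 223 CPM with NFIC shRNA. The groups were far apart, and NFIC shRNA replicate 3 was again the highest. The mean rose from 74.5 ± 2.4 to 194 ± 25.3 CPM (SD, n = 3), a ratio of 2.61. The log2 fold change was 1.39 (SE 0.076, 95% interval 1.22 to 1.55, adjusted p = 9.66e-10 by edgeR) and was 1.29 without the 2 samples that lay apart. Its transcript carries the poly(A) signal ATTAAA, 19 bases from its annotated end, in addition to the stem-loop shown above. Reads of the gene count do not tell which of its 3′ ends was used.

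H2AZ1 and H2AZ2 encode the near-identical proteins H2A.Z.1 and H2A.Z.2, from chr4:99948086-99950355 and chr7:44826791-44848087, both on the minus strand. H2AZ1 was measured at 309, 339 and 292 CPM in the scrambled samples and at 453, 448 and 478 CPM with NFIC shRNA. H2AZ2 was measured at 127, 122 and 117 CPM and at 179.8, 162 and 188 CPM in the same order. For both genes every NFIC shRNA sample was above every scrambled sample. The log2 fold changes were 0.55 (SE 0.057, 95% interval 0.43 to 0.67, adjusted p = 2.34e-07) for H2AZ1 and 0.53 (SE 0.058, 95% interval 0.41 to 0.65, adjusted p = 5.08e-07) for H2AZ2 in the edgeR fit. Their summed level rose from 436 ± 26.2 to 636 ± 28 CPM (SD, n = 3) without overlap (exact permutation test, two-sided, p = 0.1, the smallest possible). H2AZ1 made up 71.9 ± 1.38% of the counts of the pair in the scrambled samples and 72.3 ± 1.01% with NFIC shRNA, and the groups overlapped (difference 0.335 percentage points, exact permutation test, two-sided, p = 0.6). This difference had no stable sign, since it was -0.166 without scrambled replicate 1, 1.12 without scrambled replicate 2 and -0.243 without NFIC shRNA replicate 2. H2AZ1 and H2AZ2 share no run of 31 bases between their transcripts, and rows for H2AZ pseudogenes together held 0 to 3 counts in each sample. The divergent transcript H2AZ1-DT shares 223 exon bases with H2AZ1 on the other strand and went from 123 to 174 CPM (log2 fold change 0.51). Reads from these bases have the same limit as those shared by H1-10 and its antisense gene.

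MACROH2A1 encodes macroH2A1, an H2A variant with a large globular domain beyond its histone fold. The gene lies at chr5:135334381-135399914 on the minus strand. It was measured at 431, 412 and 412 CPM in the scrambled samples and at 233, 226 and 220.3 CPM with NFIC shRNA. The groups were far apart with little spread within either, and the mean fell from 418 ± 10.8 to 226 ± 6.09 CPM (SD, n = 3), a ratio of 0.541. The log2 fold change was -0.89 (SE 0.048, 95% interval -0.99 to -0.78, adjusted p = 1.32e-10 by edgeR), the smallest adjusted p among the 8 histone genes. The gene shares 4706 exon bases with PITX1-AS1 and 166 with ENSG00000270021, both long noncoding genes on the other strand. PITX1-AS1 went from 126 to 75 CPM (log2 fold change -0.75) and ENSG00000270021 from 10.8 to 5.21 CPM (log2 fold change -1.05). Reads from these shared bases cannot be told apart either. The isoforms macroH2A1.1 and macroH2A1.2, which differ by 1 alternative exon, were not separated by counts per gene.

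H3-3A and H3-3B encode the same protein, H3.3, the H3 variant laid down outside replication, from chr1:226061851-226072019 on the plus strand and chr17:75776434-75785893 on the minus strand. H3-3A was measured at 299, 322 and 295 CPM in the scrambled samples and at 323, 318 and 334 CPM with NFIC shRNA. The groups overlapped, since scrambled replicate 2 was above NFIC shRNA replicate 2. The log2 fold change was 0.088 (SE 0.050, 95% interval -0.018 to 0.19) and missed the threshold (adjusted p = 0.141 by edgeR), but without the 2 samples that lay apart it was 0.11 and passed (adjusted p = 0.0364 by edgeR). H3-3B was measured at 761, 721 and 725 CPM in the scrambled samples and at 595, 588 and 567 CPM with NFIC shRNA. Every NFIC shRNA sample was below every scrambled sample. The log2 fold change of H3-3B was -0.33 (SE 0.048, 95% interval -0.43 to -0.23, adjusted p = 1.15e-05 by edgeR). H3-3B shares 179 exon bases with UNK on the other strand, which went from 56.6 to 49.4 CPM (log2 fold change -0.2). It shares 87 with MIR4738 on the same strand, and H3-3A shares 48 with H3-3A-DT on the other strand. Reads from these shared bases cannot be told apart either.

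The pair of H3.3 genes thus moved unequally. H3-3A made up 28.2, 30.9 and 28.9% of their summed counts in the scrambled samples and 35.2, 35.1 and 37.1% with NFIC shRNA. The groups did not overlap, with a difference of 6.41 percentage points (exact permutation test, two-sided, p = 0.1, the smallest possible). On the FPKM scale, which divides by gene length, the share went from 33.7 ± 1.49 to 40.5 ± 1.16% (SD, n = 3). The summed level of both genes was 1059.8, 1043 and 1020 CPM in the scrambled samples and 918, 906 and 901 CPM with NFIC shRNA, a difference of -133 CPM between the means (exact permutation test, two-sided, p = 0.1). This sum fell while that of the H2A.Z genes rose.

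A processed pseudogene of H3-3A, H3P6, draws on the same sequence. All 381 runs of 31 bases in its 411-base transcript occur in the H3-3A transcript and none in that of H3-3B, and H3-3A and H3-3B share none with each other. H3P6 was credited with 1399, 2027 and 1535 counts in the scrambled samples and with 1762, 1807 and 2110 with NFIC shRNA (log2 fold change 0.22, adjusted p = 0.03 by edgeR), and reads of its coding copy cannot be assigned with certainty. With H3P6 added to H3-3A, the share was 34.0 ± 1.83% against 41.3 ± 1.40% (difference 7.28 percentage points) and the H3.3 sum went from 1114 to 993 CPM. H3-3A and H3P6 together stood at 378 ± 22.8 CPM in the scrambled samples and at 409.8 ± 14.8 CPM with NFIC shRNA (SD, n = 3), and the groups overlapped (exact permutation test, two-sided, p = 0.2).

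The variant genes and H1-10 have no stem-loop of this form, apart from H2AX. The last 40 bases of the representative (MANE Select) transcript hold the poly(A) signal AATAAA in H1-10, H2AZ1 and H3-3B and its common variant ATTAAA in H2AX and H3-3A. The signals are shown in capitals with the bases around them, on the transcript strand, to mark which genes have an annotated end of this kind. Neither form was found in that stretch of H2AZ2, MACROH2A1, H1-2 or H1-4, which says only that these letters are not in this window of 1 transcript per gene.
H1-10: ttgggcacAATAAAgcgtttaa
H2AX: ctaattttATTAAAggattgtt
H2AZ1: ataagttcAATAAAggtcatat
H3-3A: taaaatacATTAAActatacct
H3-3B: gagactaaAATAAAatttttga

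**Figure D3:**
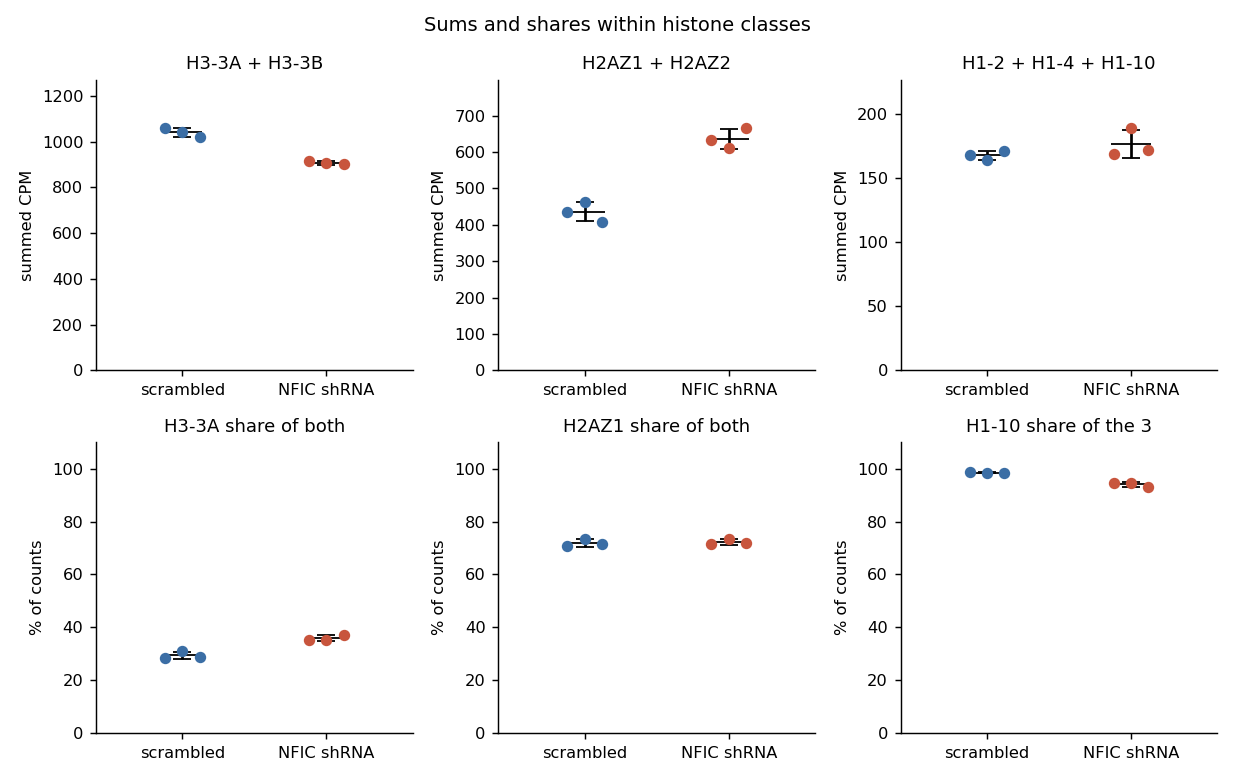
Summed CPM of the genes of a class (upper row) and the share of 1 gene in the counts of its class (lower row, %) in each sample (points), with the mean and SD of 3 samples (bars). The H3.3 sum is lower and the H2A.Z sum higher with NFIC shRNA; the H3-3A share is higher, the H1-10 share of H1-2, H1-4 and H1-10 is lower (98.6 to 94.1%), and the H2AZ1 share overlaps between the groups.

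Among the 3 linker histone genes, H1-10 held 98.8, 98.5 and 98.4% of the counts in the scrambled samples and 94.7, 94.6 and 93.1% with NFIC shRNA. The groups did not overlap (difference -4.44 percentage points, exact permutation test, two-sided, p = 0.1, the smallest possible). Since H1-2 is the shorter gene, the difference was larger by FPKM, at -9.5 percentage points. These are shares of reads, under the limit on capture given for H1-2. The sum of the 3 genes was 168 ± 3.33 CPM in the scrambled samples and 176 ± 11.1 CPM with NFIC shRNA and overlapped (p = 0.2, exact permutation test, two-sided).

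The order of the genes by level was taken per length, by the deposited FPKM. In the scrambled samples the order was H2AZ1 (136 ± 10.3), H3-3B (118 ± 3.23), H1-10 (108 ± 2.22), H3-3A (60.1 ± 2.87), H2AX (45.6 ± 1.4), H2AZ2 (25.4 ± 0.919), MACROH2A1 (23.3 ± 0.537), H1-2 (3.4 ± 0.31) and H1-4 (0.222 ± 0.236). With NFIC shRNA, H2AX stood in second place at 120.4 ± 16.5, with values of 108, 114 and 139, behind H2AZ1 at 202 ± 8.34. H1-10 (109 ± 7.18) and H2AX were neighbours whose samples overlapped. H3-3B followed at 95 ± 1.75, H3-3A at 64.6 ± 1.99 and H2AZ2 at 37.1 ± 2.89. MACROH2A1, at 12.8 ± 0.262, then stood below H1-2, at 15.6 ± 2.34, whose samples ranged from 13.8 to 18.3 against 12.5 to 13 for MACROH2A1, an order that turned with the other lengths given next. In the scrambled samples, H2AZ1 was above 98.3% and H1-2 above 45.6% of the genes tested. The limit on capture given for H1-2 holds for this percentage and for the places of H1-2 and H1-4 in both orders.

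These orders depended on the length assigned to each gene. The table's length for MACROH2A1 was 17730 bases, 9.25 times that of its MANE Select transcript, and that for H3-3A was 5019 bases, 4.69 times. For H1-2 it was 642 bases, the length of the coding sequence with its stop codon. With the MANE Select lengths, an alternative chosen after seeing the data, MACROH2A1 stood at 215 ± 4.97 in the scrambled samples and at 118 ± 2.42 with NFIC shRNA, and H1-2 with NFIC shRNA stood at 13.7 ± 2.06, far below it. H2AX was then in place 4 of 9 with NFIC shRNA, at 122 ± 16.7, and H3-3A (282 ± 13.5) was above H3-3B (269 ± 7.33) in the scrambled samples. By these lengths, however, samples of H2AX overlapped those of MACROH2A1 and of H1-10 (109 ± 7.18) with NFIC shRNA. Scrambled samples of H3-3A likewise overlapped those of H3-3B. H2AZ1 was the highest and H1-4 the lowest of the 9 genes by both lengths in both groups. The places of H1-2 and H1-4 remain under the limit on capture by either length. Differences between the groups for 1 gene do not depend on the length.

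**Figure D4:**
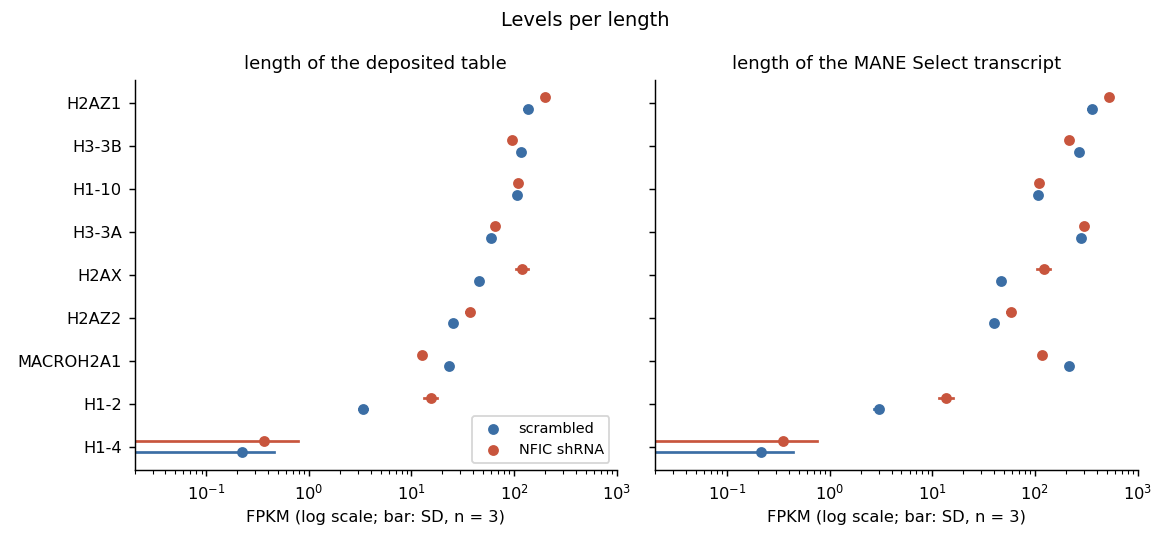
FPKM of the 9 histone genes in scrambled (blue) and NFIC shRNA (red) samples on a log axis, as the mean with the SD of 3 samples, by the length in the deposited table (left) and by the MANE Select transcript (right). H2AZ1 is the highest of the 9 by both lengths, MACROH2A1 and H3-3A move up with the shorter length, and the SD of H1-4 runs off the axis because it exceeds the mean.

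Genes that carry, place or process these histones were then listed by role and counted in the same fit, in which 29.6% of all genes rose and 30.3% fell. Of 4 further variant genes tested, H2AJ, a replication-independent H2A gene, rose from 12.9 to 21.0 CPM (log2 fold change 0.70, adjusted p = 2.94e-06 by edgeR) and CENPA, the centromeric H3 variant, rose from 14.4 to 22.3 CPM (log2 fold change 0.63). MACROH2A2, the paralog of MACROH2A1, fell from 31.8 to 27.1 CPM (log2 fold change -0.23, adjusted p = 0.0128 by edgeR). That call was lost without NFIC shRNA replicate 1, without the 2 samples that lay apart and at an adjusted p under 0.01. The count of 1 that fell was lost with it.

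The H3.3 deposition list, which holds the HIRA complex, DAXX and ATRX, had 7 of 8 genes higher and none lower, with a median log2 fold change of 0.28. UBN1 and UBN2, alternative subunits of the HIRA complex, rose from 76.0 to 106 CPM and from 26.3 to 37.3 CPM (log2 fold changes 0.49 and 0.50). These 7 genes rose while H3-3B, which encodes their substrate, fell and H3-3A, which encodes the same protein, was not called. Under upper-quartile scaling, without NFIC shRNA replicate 3 or at an adjusted p under 0.01, 5 genes of this list were called higher in place of 7. Of 11 genes for H2A.Z exchange, 4 rose and 3 fell, with a median of 0.047. ANP32E, the chaperone that removes H2A.Z, rose from 266 to 389 CPM (log2 fold change 0.55), and EP400, an ATPase that exchanges it, rose by 0.32 on the log2 scale. SRCAP, the other such ATPase, fell from 110 to 88.2 CPM (log2 fold change -0.32) and YEATS4, a shared subunit, changed by -0.27. Without scrambled replicate 2, without NFIC shRNA replicate 2 or at an adjusted p under 0.01, 1 gene of this list in place of 3 was called lower.

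Of 10 chaperones of H1 and of newly made histones, 5 rose and 3 fell, with a median of 0.19. ASF1B and CHAF1A, which serve replication, rose by 0.78 and 0.54 on the log2 scale. NAP1L1, a chaperone of H2A, H2B and H1, fell from 1108 to 593 CPM (log2 fold change -0.90, adjusted p = 2.99e-09 by edgeR), and PTMA, prothymosin alpha, which binds H1, fell from 2531 to 1981 CPM (log2 fold change -0.35). Leaving out scrambled replicate 1, scrambled replicate 3 or NFIC shRNA replicate 3, upper-quartile scaling, or an adjusted p under 0.01 gave 3 genes higher in place of 5. Of 11 genes for the 3′ processing of histone mRNA, 6 rose and 1 fell, with a median of 0.15. SLBP, the protein that binds the stem-loop, went from 80.1 ± 3.28 to 94.5 ± 5.15 CPM (SD, n = 3, log2 fold change 0.24, adjusted p = 0.00184 by edgeR) and SYMPK, the scaffold of the cleavage complex, from 169 to 249.7 CPM (log2 fold change 0.57). LSM10, a subunit of the U7 particle, fell from 13.5 to 11.1 CPM (log2 fold change -0.28), a call lost without NFIC shRNA replicate 1, under DESeq2 and at an adjusted p under 0.01, and 2 genes of this list were lower without scrambled replicate 1, without NFIC shRNA replicate 3 or under upper-quartile scaling.

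Of 10 genes that write, read or erase the H2AX phosphorylation or act at breaks, 4 rose and 2 fell, with a median of 0.14. BAZ1B, a kinase of H2AX tyrosine, rose from 146 to 212 CPM (log2 fold change 0.54) and PPM1D, a phosphatase that removes gamma-H2AX, rose from 26.3 to 32.0 CPM (log2 fold change 0.28). WRN, a DNA helicase, fell from 19.9 to 12 CPM (log2 fold change -0.73), whereas ATR, a kinase of H2AX, stood at 47.3 and 42.3 CPM (log2 fold change -0.16, adjusted p = 0.0368 by edgeR). Leaving out scrambled replicate 2, NFIC shRNA replicate 1 or NFIC shRNA replicate 2, DESeq2, total-count scaling, no filter on low counts, the replicate block and an adjusted p under 0.01 each gave 1 gene lower in place of 2. H2AX itself changed more than any gene of this list, whose range was -0.73 to 0.54.

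Of 15 S phase markers, 5 rose and 2 fell (median 0.083, against 29.6% and 30.3% of all genes), with CDC6, a replication licensing factor, up from 43.3 to 83.8 CPM (log2 fold change 0.95) and PCNA, the replication clamp, down from 96.1 to 38.8 CPM (log2 fold change -1.31). Without scrambled replicate 2, or without the 2 samples that lay apart, 8 of them rose. Their summed level was 1264 to 1638 CPM in the scrambled samples and 1395 to 1693 CPM with NFIC shRNA, and overlapped. Of 15 G2/M markers, 12 rose and none fell (median 0.69), and their sum went from 1523 to 1665 CPM up to 2142 to 2719 CPM without overlap. CCNB1, cyclin B1, rose from 70.1 to 124 CPM (log2 fold change 0.83). The part of the cell cycle in the changes of H1-2, H2AX and the H2A.Z genes was not tested.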

How the data were processed

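Bulk RNA from 6 THP-1 samples was sequenced in read pairs (NEBNext Ultra RNA kit). According to the study's methods and the submitters' processing notes, the authors trimmed reads with Trim Galore, mapped them to GRCh38 with STAR and counted them with featureCounts, and the raw counts per gene were deposited. Tool versions, the strand setting, poly(A) selection and the treatment of duplicate reads are not given in the sources used here. The authors also deposited a normalized signal (counts over DESeq2 size factors) and FPKM, made from it with each gene's length. The columns of the authors' own comparison, with log2 fold changes, the Wald score and p-values, were not used.

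Counts were fitted in edgeR 4.0.16 (R 4.3.3) with TMM factors, filterByExpr and the robust quasi-likelihood test over 6 samples without a block. P-values were adjusted by the Benjamini-Hochberg method over all 19182 genes that passed the filter, with calls made at an adjusted p under 0.05. The steps were tested on simulated data. Shares and sums were compared over samples by exact permutation tests. The 9 histone genes and the lists were chosen with earlier results of these data known. Genes named from the lists were the 2 with the smallest adjusted p in each direction (1 for cell cycle lists), with CENPA, SLBP and linker histone genes in any case, and 1 gene of the lists is not reported here. H3P6, CDC40 and genes overlapping a histone gene were named after their values were seen. Depth was 20369543 to 24809720 counts. Gene positions, stem-loops and MANE Select transcripts came from GENCODE release 44, matched by identifier. Promoters came from RefSeq (GRCh38.p14) and were found for all 9 genes. The alternatives were DESeq2 1.42.0, its size factors, upper-quartile and total-count scaling, other filters on low counts, an adjusted p under 0.01, each sample left out, a replicate block and shares by FPKM. 3 alternatives were chosen after seeing the data: leaving out the 2 samples that lay apart, MANE Select lengths, and adding H3P6 to H3-3A.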

Additional observations from a re-analysis of the deposited data

How the results depend on the processing

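The 6 calls among the histone genes (4 higher, 2 lower) were kept under DESeq2, every other scaling and filter, an adjusted p under 0.01 and each sample left out. Without the 2 samples that lay apart on the second component, a fit chosen after seeing the data, H3-3A was added at 0.11. H1-10, which was not called, changed sign with upper-quartile scaling (-0.049), with at least 10 counts in every sample (-0.006) and across the samples left out (-0.045 to 0.041). The median of all genes moved from -0.011 to -0.068 under upper-quartile scaling, and the difference in the H3.3 sum from -133 to -171 CPM. The H1-10 share differed by -9.5 percentage points by FPKM. Over the samples left out, the log2 fold change was 2.06 to 2.26 for H1-2, 1.28 to 1.46 for H2AX, 0.5 to 0.61 for H2AZ1, 0.49 to 0.59 for H2AZ2, -0.9 to -0.86 for MACROH2A1, 0.06 to 0.12 for H3-3A and -0.35 to -0.31 for H3-3B. Counts of genes per list that moved by over 1.5 times are given beside each list, and the causes were not tested. Genes called numbered 11486, and 10176 with DESeq2. Samples with the same replicate label did not deviate together (correlations 0.056, -0.086 and -0.045), so these labels gave no sign of pairing. The 2 samples that lay apart on the second component carry the same number in their titles (C3 and N3). Pairing by the numbers in the titles was not tested. With the replicate block 10983 genes were called, and the 6 calls among the histone genes remained. H1-4 is limited by its low counts, at most 15 in a sample. The summed values are limited by the 3 samples per group, since their exact test cannot go below 0.1.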
